A study of Drosophila melanogaster with 16 samples.

Results

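The genes described here are the small nuclear RNA (snRNA) and small nucleolar RNA (snoRNA) genes of Drosophila melanogaster, followed across the adult foregut. They were chosen by their biotype in the Ensembl annotation of the fly genome (BDGP6), so that every gene typed as snRNA or snoRNA and present in the deposited transcript tables was taken, whatever its level. This gave 282 genes, 26 snRNA and 256 snoRNA, of 17039 genes in all. The annotation holds 301 such genes, and the other 19, among them snRNA:7SKb, snRNA:U1:95Ca, snRNA:U6:96Ab and snoRNA:U3:54Aa, were not analysed here. The annotation's prefixes (snRNA:, snoRNA:, scaRNA:) are left out of most names below.

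The study profiled hand-dissected foregut organs of adult mated Canton-S females by bulk RNA-seq. All flies were reared axenically, that is, without bacteria. Flies that received Lactiplantibacillus plantarum strain LpWF as adults gave 3 crop libraries, 5 libraries of the proventriculus (PV) and 3 of the salivary gland (SG), and flies kept axenic gave a further 5 PV libraries. The crop is a muscular storage sac, taken with its ducts, and the PV is the valve-like organ that makes the peritrophic matrix lining the gut. Each library pooled the organs of several flies, the age of the flies is not given in the sources used here, and nothing in them says that libraries of a group came from separate cultures, so p-values measure only the spread between these libraries, which may be technical. Crop and PV RNA was taken on columns and sequenced as stranded total RNA after rRNA depletion with a human, mouse and rat probe set, and SG RNA was taken with TRIzol and sequenced after poly(A) selection. The 3 SG libraries are therefore set beside the others with no test, and for these RNAs the organ and the library type cannot be told apart there.

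The snRNAs are the RNA cores of the machinery that removes introns. U1 pairs with the start of an intron and U2 with its branch point, U4, U5 and U6 join as a complex, and U11, U12, U4atac and U6atac do the same work for a rare class of introns. 7SK, which is also typed as snRNA, holds the elongation kinase P-TEFb inactive, and U7 takes part in making the ends of histone mRNAs. The snoRNAs guide modification enzymes to ribosomal RNA: box H/ACA snoRNAs direct pseudouridylation (named Psi with the target position), box C/D snoRNAs direct ribose methylation (named Me), scaRNAs do so on snRNAs, and U3 is needed to cut the precursor of small-subunit rRNA. In flies most snoRNAs are cut out of the introns of host genes, many of which encode ribosomal proteins.

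Total reads assigned to genes ran from 18186391 to 45500807 per library. Reads on rRNA genes took 6.14 to 10.5% of a crop library, 15.3 to 38.9% of a PV library with LpWF, 19.1 to 43.4% of an axenic PV library and 0.843 to 1.01% of an SG library, and PV libraries 4 and 5 of both treatments were the 4 above 25%. The scaling factors of the TMM method (trimmed mean of M-values), which corrects library totals for composition, were 1.49 to 1.60 in crop, against 0.741 to 1.11 in PV with LpWF. Crop and PV differed so widely that the median gene differed by 0.01 on the log2 scale with TMM and by 0.72 without it, so both scales are given below. The labelled organs carried their markers. The 8 muscle markers summed to 17038 to 19150.3 CPM (reads scaled to a library of 1000000 after TMM) in crop, against 2282 to 2986 CPM in PV with LpWF, and all 8 were higher in crop. The 3 PV epithelium markers summed to 1219.6 to 7702 CPM in crop, against 45407 to 83848 CPM in PV with LpWF. The 8 midgut digestive genes summed to 402 to 3286 CPM in crop, against 21570 to 43542 CPM in PV with LpWF. Their part in the results below was not tested. The paper reports most of these genes, among them Amy-p and alphaTry, in cells of the posterior PV itself. They therefore do not mark midgut tissue next to the PV alone. In such bulk samples, fewer cells of a type and less RNA per cell cannot be told apart.

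What could be seen of these RNAs followed their length. The reads were 75 bases long, and 32 of the 34 genes shorter than that were listed at 0 in all 13 rRNA-depleted libraries, with at most 13 reads summed over the 13 in the others. At 75 to 99 bases 19 of 65 genes were at 0, with a median of 6 reads over the 13 libraries, and at 100 to 129 bases 5 of 25 were at 0, with a median of 12 reads. The median was 334 reads for the 107 genes of 130 to 149 bases and 1183 reads for the 42 genes of 150 to 199 bases. All 9 genes of 200 bases or more had at least 100 reads, with a median of 51372. Deposited effective lengths, the number of start positions left to a fragment, ran from 2.51 for the shortest gene to 194 for 7SKa, so TPM, which divides by them, weighs a read of a short gene far more than a read of a long one.

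**Figure D1:**
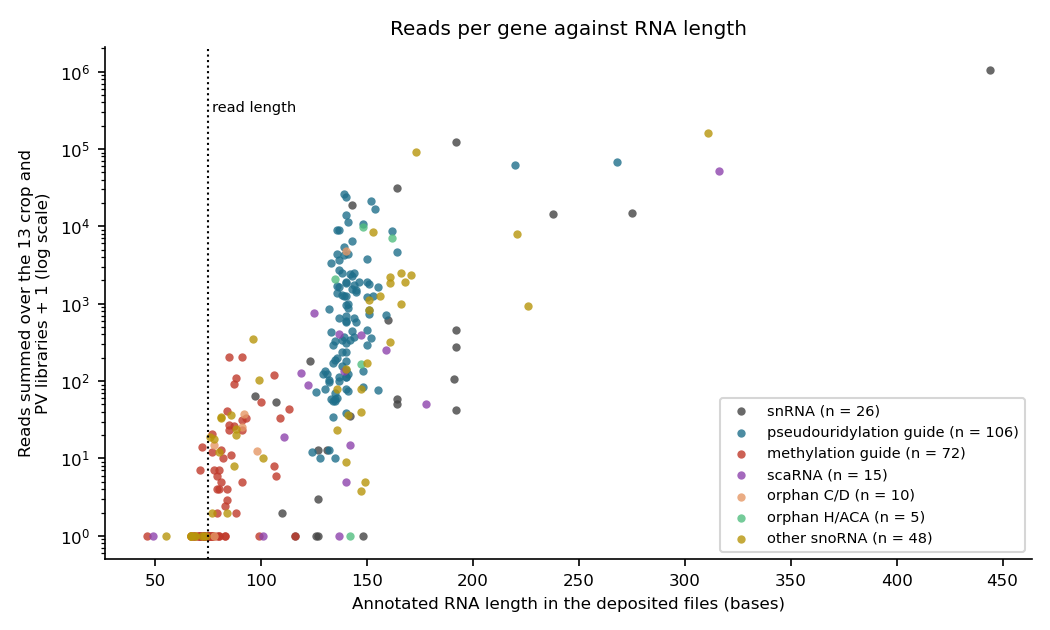
Reads of each of the 282 genes summed over the 13 rRNA-depleted libraries (vertical axis, reads plus 1 on a log scale) against RNA length in bases, with a point per gene coloured by class. Nearly all genes shorter than 75 bases sit at 0, and the 9 genes of 200 bases or more all lie at or above 100 reads.

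The split by length was also a split by guide class. The 72 methylation guides had a median length of 79 bases and 1180 reads together, 0.0594% of all reads on these genes, and 36 of them were listed at 0 in all 13 libraries. The 106 pseudouridylation guides had a median length of 140 bases and 379808 reads, 19.1% of the total, and none was at 0. Among the methylation guides of 75 bases or more, 19 of 53 were still at 0 and the highest had 205 reads. Genes with no class in their name, among them U3 and the snoRNAs named after their hosts, held 14.4% of the reads, scaRNAs held 2.70% and snRNAs held 62.5%. Whether a low value of a short gene comes from the library or from a low level was not tested, and no level of the box C/D guides is drawn from it. Over all classes, 59 of the 282 genes were at 0 in all 13 libraries.

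7SK alone took more reads than all snoRNA genes together in 11 of the 13 rRNA-depleted libraries, the exceptions being PV library 4 of both treatments. Of all reads on genes, 7SK took 0.391, 0.294 and 0.314% in crop, against 0.25, 0.295, 0.256, 0.175 and 0.223% in PV with LpWF, and 0.281, 0.271, 0.289, 0.153 and 0.238% in axenic PV. All snoRNA genes together took 0.211, 0.0865 and 0.122% in crop, against 0.198, 0.149, 0.199, 0.197 and 0.205% in PV with LpWF, and 0.168, 0.249, 0.219, 0.222 and 0.140% in axenic PV. The groups overlapped for snoRNAs, crop libraries 2 and 3 lying below all 10 PV libraries and crop library 1 above each PV library with LpWF. The snRNAs other than 7SK took 0.0675, 0.0197 and 0.0345% in crop, against 0.0268 to 0.0614% in PV with LpWF and 0.0319 to 0.0860% in axenic PV, again overlapping. In the poly(A)-selected SG libraries all snRNAs together had 30, 115 and 41 reads and all snoRNAs 314, 352 and 286 reads, and the snoRNA share was at most 0.00104%.

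**Figure D2:**
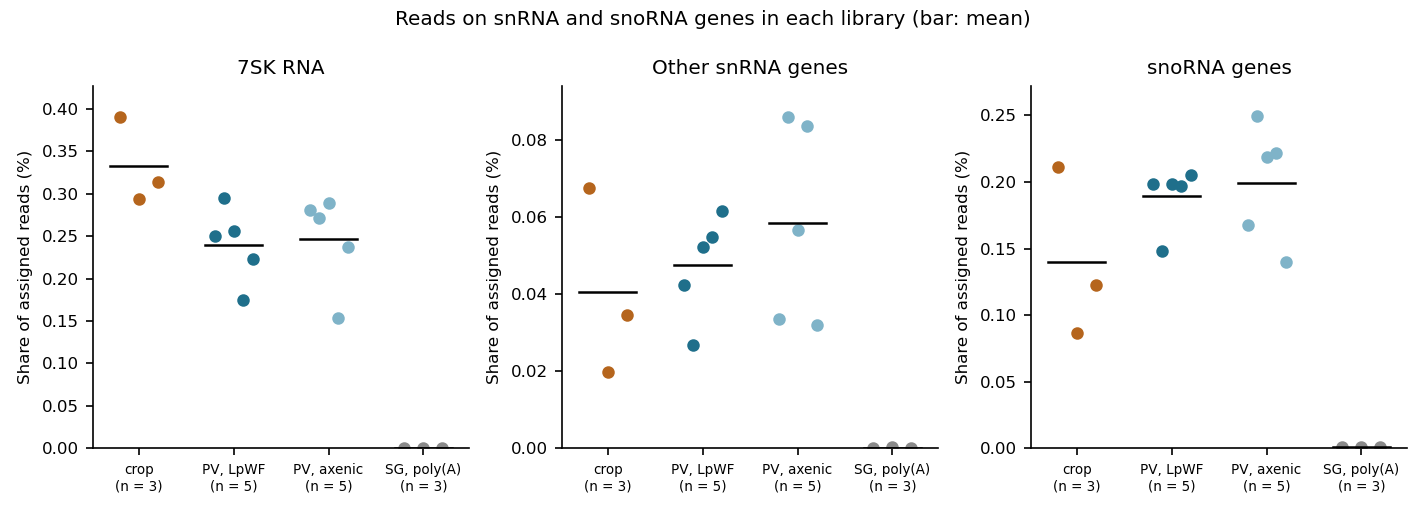
Percent of all gene reads on 7SK, on the other snRNA genes and on snoRNA genes, with a point per library and a line at the mean of each group, for crop, PV with LpWF, axenic PV and SG. The 3 rRNA-depleted groups overlap for snoRNAs, with crop means of 0.140% and PV means of 0.189% (LpWF) and 0.199% (axenic), and SG lies near 0.

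Whether crop or PV held more of these RNAs in sum depended on what they were measured against. The snRNA share averaged 0.373 ± 0.0756% in crop (SD, n = 3) and 0.287 ± 0.0352% in PV with LpWF (SD, n = 5). Of reads outside rRNA genes it was 0.404 ± 0.0741% in crop and 0.386 ± 0.0324% in PV with LpWF, and the groups overlapped. Most of the snRNA share was 7SK, at 0.333% in crop and 0.240% in PV with LpWF. The other snRNAs went the other way, at 0.0406 ± 0.0245% in crop and 0.0475 ± 0.0135% in PV with LpWF. Outside rRNA they averaged 0.0436% in crop and 0.0664% in PV with LpWF. The snoRNA share averaged 0.140 ± 0.0642% in crop and 0.189 ± 0.0231% in PV with LpWF. Outside rRNA the snoRNA share was 0.151 ± 0.0665% in crop and 0.260 ± 0.0601% in PV with LpWF. The groups overlapped on both measures, outside rRNA at 0.0967 to 0.225% in crop and 0.176 to 0.322% in PV with LpWF. In the deposited TPM the direction for snoRNAs turned, with a log2 ratio of crop over PV of 0.07, against -0.44 on read shares. The snoRNA TPM ran from 99220 to 124625 in crop, against 85943 to 153277 in PV with LpWF, in libraries where these genes took at most 0.211% of reads.

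Within the snRNAs a single listed copy of each family carried nearly all reads. 7SKa held all 7SK reads, U1:21D held 99.7% of U1 reads, U2:34ABb 99.3% of U2 reads and U4:39B 99.8% of U4 reads, while U5:63BC held 87.1% of the few U5 reads. The copies 7SKb, U1:95Ca, U1:95Cb and U2:34ABc are not in the deposited tables and could take no reads, so 7SKa was the only 7SK copy listed. Part of this split was thus set by which copies were listed. Copies of U1, U2 and U4 held fractional estimated reads in some libraries, so the split between them is uncertain. U5 copies, of 110 to 131 bases, held whole numbers in each library. Each family was summed over its listed copies. Per length, averaged over the 13 libraries, 7SKa stood at 5842 CPM per kb, U2:34ABb at 1731 CPM per kb, U1:21D at 526 CPM per kb, U4:39B at 373 CPM per kb, U12 at 150.2 CPM per kb and U11 at 139 CPM per kb. U4atac was at 9.46 CPM per kb and U5:63BC at 3.96 CPM per kb. In the deposited TPM, which uses effective lengths, 7SKa did not lead in this way, at 3650 to 12689 over the 13 libraries, against 9884 to 29603 for U2:34ABb. U6 had 53 reads and U6atac 64 reads over the 13 libraries, and U7 and LU were listed at 0.

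7SK was the steadiest of the families. Its CPM was 2566, 1969.7 and 1961 in crop, against 2419.8, 2646, 2643, 2361 and 2873 in PV with LpWF, with crop library 1 inside the PV range. The log2 fold change of crop over PV was -0.24 (SE 0.12) and was not called (adjusted p = 0.122, edgeR quasi-likelihood test). On library totals without TMM the direction turned, at 0.47 (adjusted p = 0.0380).

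The major spliceosomal snRNAs varied far more between libraries of a group. U1 had 63.5, 13.3 and 22.5 CPM in crop, against 51.8, 32.5, 99.2, 154 and 136 CPM in PV with LpWF. U2 had 280.1, 76.2 and 133 CPM in crop, against 258, 126, 311, 397 and 454 CPM in PV with LpWF. U4 had 21.8, 10.4 and 11.3 CPM in crop, against 33.7, 16.9, 39.3, 109 and 111 CPM in PV with LpWF. In each family the groups overlapped, with crop library 1 above PV library 2 with LpWF, and PV libraries 4 and 5, with over 25% rRNA, were the highest. The log2 fold changes were -1.51 (SE 0.73, adjusted p = 0.128) for U1, -0.91 (SE 0.54, adjusted p = 0.203) for U2 and -2.09 (SE 0.74, adjusted p = 0.0522) for U4.

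The rare-intron snRNAs differed less. U11 had 36.9, 17.7 and 28.3 CPM in crop, against 33.9, 35.6, 41.2, 43.6 and 40.1 CPM in PV with LpWF, and the log2 fold change was -0.48 (SE 0.21, adjusted p = 0.0823). U12 had 37.8, 13.9 and 19.3 CPM in crop, against 30.5, 27.9, 45.0, 33.1 and 46.7 CPM in PV with LpWF, at -0.62 (SE 0.34, adjusted p = 0.166). U4atac, at 0.589 to 2.12 CPM in crop, against 1.16 to 2.39 CPM in PV with LpWF, gave -0.60 (SE 0.44, adjusted p = 0.284). Only crop libraries 2 and 3 lay below the PV range for U11 and U12, and without TMM all of these changed sign, at 0.26 for U11, 0.13 for U12 and 0.14 for U4atac. U5, at 0 to 0.451 CPM in crop and 0.0757 to 0.978 CPM in PV with LpWF, gave -1.24 (SE 0.97, adjusted p = 0.316).

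Of the 8 snRNA families tested, edgeR thus called none between crop and PV with LpWF, with 2 at an unadjusted p under 0.05, and DESeq2 called U4 at -2.12 (adjusted p = 0.00509) and U11 at -0.51 (adjusted p = 0.0430). Without crop library 1, 5 families were lower in crop, 7SK, U1, U11, U12 and U4atac, and without PV library 2 with LpWF only U4 was, at -2.35 (adjusted p = 0.0223).

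Among snoRNAs, U3 and a snoRNA in the gene Tudor-SN stood highest in CPM per kb of annotated length. U3:54Ab was at 1425 CPM per kb and Tudor-SN-a at 1329 CPM per kb over the 13 libraries, ahead of the H/ACA guides Psi28S-291 at 755 CPM per kb, Psi28S-2566 at 649.7 CPM per kb, Psi18S-1377a at 482 CPM per kb and Psi18S-1820 at 468 CPM per kb. The scaRNA MeU5-C46, whose name gives a methylation on U5, followed at 416 CPM per kb. The order depended on the length used. In the deposited TPM, which uses effective lengths, Tudor-SN-a ran from 1640 to 4011 over the 13 libraries, below Psi18S-1377a at 5342 to 9617.

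U3 had 241, 39.3 and 92.3 CPM in crop, against 235, 119.5, 222, 340.1 and 272 CPM in PV with LpWF. Crop libraries 2 and 3 were below every PV library with LpWF, and crop library 1 was inside the PV range. The log2 fold change of -0.93 (SE 0.60) was not called (adjusted p = 0.240). Psi28S-2566 in CG3902, at 132, 15.9 and 33.9 CPM in crop, against 105 to 292 CPM in PV with LpWF, and Psi28S-291 in the ribosomal protein gene RpL3, at 128.8, 26.5 and 49.4 CPM in crop, against 104 to 235 CPM in PV with LpWF, had the same layout. Neither was called, at -1.52 (adjusted p = 0.130) and -1.34 (adjusted p = 0.0745). Without crop library 1 all of these were lower in crop, U3 at -1.84 (adjusted p = 0.0282), Psi28S-2566 at -2.79 (adjusted p = 0.00827) and Psi28S-291 at -2.18 (adjusted p = 0.00471), and on library totals none was, at -0.14, -0.79 and -0.56. DESeq2 also called Psi28S-291 (-1.37, adjusted p = 0.0271). MeU5-C46 had 122, 84.1 and 78.8 CPM in crop, against 126, 96.9, 135, 141 and 165 CPM in PV with LpWF, at -0.47 (SE 0.20, adjusted p = 0.0738), and at 0.28 without TMM. It was called without crop library 1 (-0.69, adjusted p = 0.0194), without PV library 2 with LpWF (-0.58, adjusted p = 0.0203) and by DESeq2 (-0.49, adjusted p = 0.0353). Psi18S-1854c in RpS5a, at 10.5 to 14.7 CPM in crop, against 14.4 to 109 CPM in PV with LpWF, was not called either (-1.94, adjusted p = 0.0638), but was without PV library 2 with LpWF (-2.20, adjusted p = 0.0316) and by DESeq2 (-1.97, adjusted p = 0.0140). The other listed U3 gene, U3:9B, was not called by edgeR, at -0.24 (adjusted p = 0.746), and at 0.52 on library totals.

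Tudor-SN-a was the clearest case of a difference between the organs. This snoRNA of 311 bases lies at chromosome 3L, 259970 to 260280, minus strand (BDGP6), in Tudor-SN, which encodes a nuclease-domain protein. It had 189.8, 80.7 and 103 CPM in crop, against 529, 374, 491, 479 and 615 CPM in PV with LpWF, and 464, 647, 537, 522 and 341 CPM in axenic PV. Every crop library lay below every PV library of either treatment. Its log2 fold change was -1.99 (SE 0.30, adjusted p = 0.000764), and it was called in all 19 alternatives run, at -2.42 to -1.24. On library totals it was at -1.24 (adjusted p = 0.00120). Its host differed the same way. Tudor-SN had 124, 140.2 and 128 CPM in crop, against 325, 345, 385, 377 and 394 CPM in PV with LpWF, a log2 fold change of -1.47 (SE 0.10, adjusted p = 1.96e-06), and -0.74 (adjusted p = 0.00139) on library totals. A guide in the same host, Psi18S-996, named after its values were seen, had 0.427 to 0.516 CPM in crop, against 1.34 to 3.09 CPM in PV with LpWF, and was lower in crop by the same test (log2 fold change -2.25, SE 0.39, adjusted p = 0.00103).

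**Figure D3:**
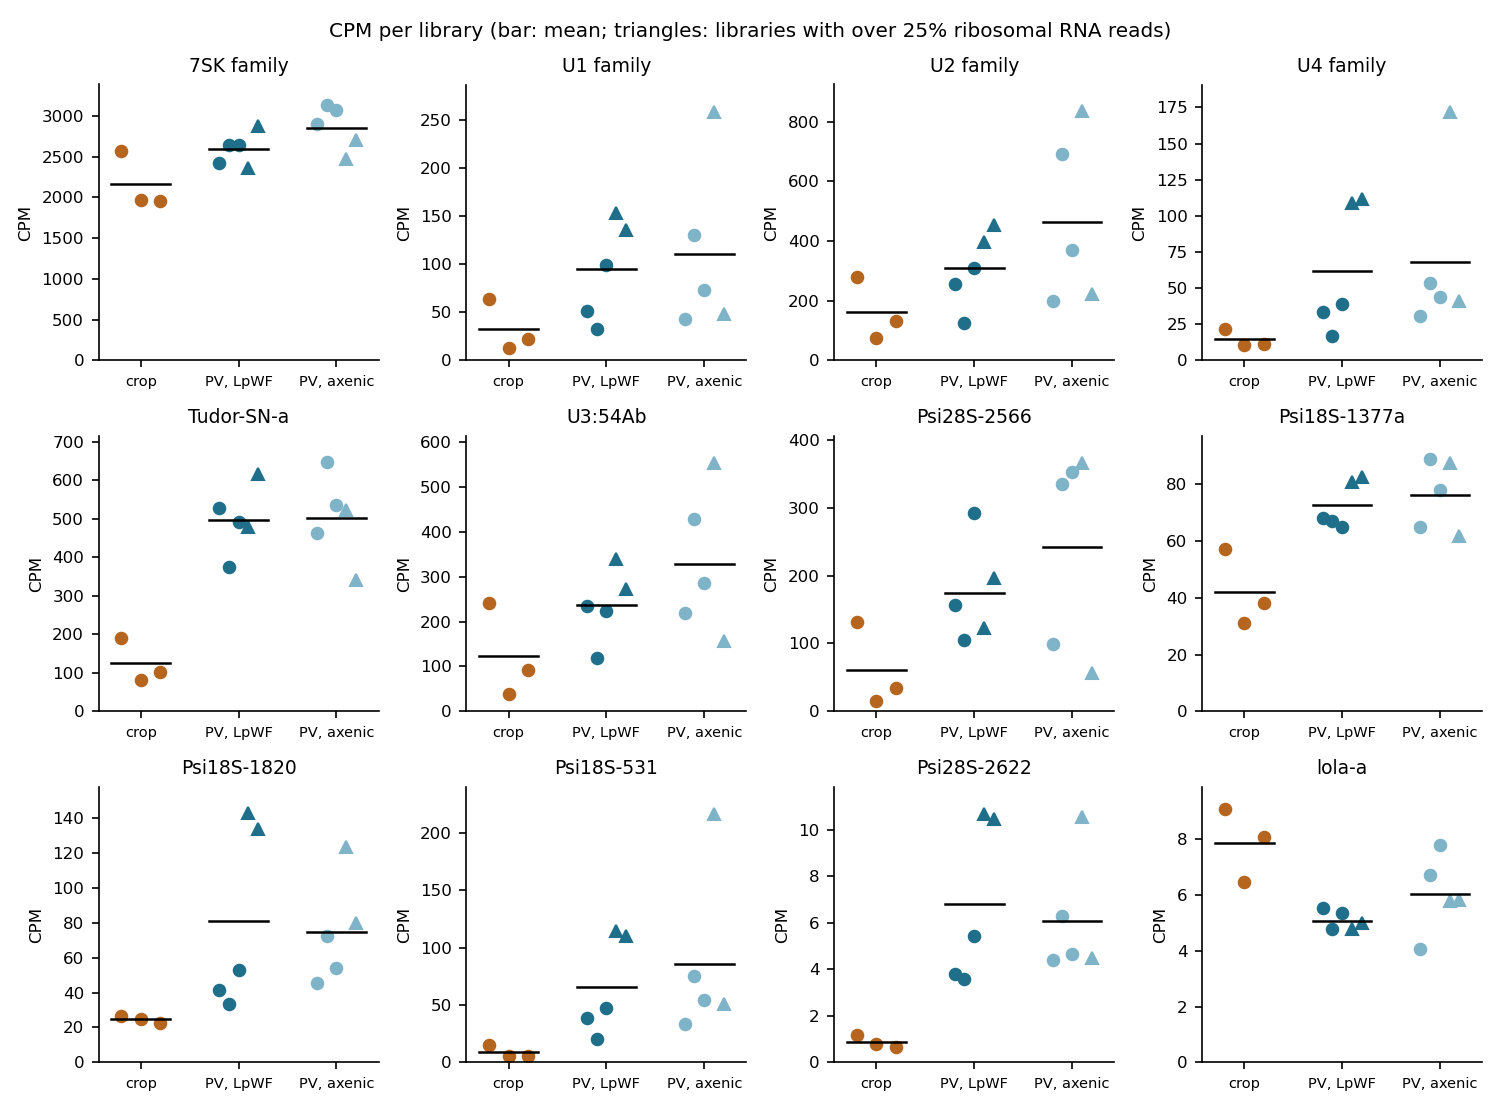
CPM in every library of crop, PV with LpWF and axenic PV for 4 snRNA families and 8 snoRNAs, each on its own axis from 0, with a point per library, a bar at the group mean and triangles for the 4 PV libraries with over 25% rRNA. Crop lies below all PV libraries for Tudor-SN-a (80.7 to 189.8 CPM, against 341 to 647 CPM) and overlaps PV for 7SK, and the triangles are the highest points of PV with LpWF for U4 and Psi18S-531.

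Across all members, 123 of 282 had enough reads to be tested between crop and PV with LpWF. Of these, 34 (27.6%) were lower in crop and 4 (3.25%) higher at an adjusted p under 0.05 (edgeR, TMM), where 25.5% of all 9713 genes tested were lower and 26.1% higher. The share that was lower was thus near that of all genes, while the share that was higher was below it. The median log2 fold change was -0.65 over the 123, against 0.01 over all genes. On library totals without TMM, 14 members (11.4%) were lower and 25 (20.3%) higher, against 10.9% and 57.8% of all genes, and all 14 and the 4 higher under TMM were called on both scales. Of the 34 lower with TMM, 32 stayed negative on library totals. The 14 include Tudor-SN-a, Psi18S-531, Psi28S-2622, Or-aca5, Psi28S-3378 and Psi28S-2876. On both scales 83 of the 123 lay below the median of all genes, and the members' median lay 0.66 (TMM) and 0.60 (library totals) below it. Members that did not overlap between the groups were 33 of 123 (26.8%) lower and 4 (3.25%) higher, against 26.0% and 26.3% of all genes.

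These counts rested on few libraries. Lower calls numbered 41 without crop library 1, 16 without crop library 2 and 15 without crop library 3, and 21 when the PV libraries above 25% rRNA were left out. Higher calls numbered 1, 7 and 2 without crop library 1, 2 and 3, and 2, 1 and 2 without PV library 1, 2 and 4 with LpWF. The share of all genes called in each of these refits is not given here. A change particular to these RNAs and a change over all genes thus cannot be told apart in these counts. Of the 34, 15 were called under every alternative setting but library totals, 12 without each library in turn, and 9 in both: Tudor-SN-a, Psi18S-996, Psi18S-1377a, Psi28S-1175a, Psi28S-1837b, Psi28S-2622, Psi28S-3342, Pi4KIIalpha-a and SC35-a. Of the 4 higher, only lola-a was. In 23 of the 34 (67.6%) all crop libraries also lay below all axenic PV libraries, as against 86.7% of all genes lower in crop. Only 1 of the 4 higher (25%) had all crop libraries above all axenic PV libraries, as against 86.5% of all genes higher in crop.

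By kind, most members tested and most lower calls were pseudouridylation guides. Of 84 tested (68.3% of the members tested), 26 were lower in crop and 2 higher, with a median log2 fold change of -0.49. They held 76.5% of the lower calls, and the 31.0% of them that were lower is near the 25.5% of all genes. On library totals 10 of the 84 were lower and 19 higher, and their median turned to 0.26. Those for small-subunit rRNA (31 tested, 8 lower, none higher, median -0.69) and large-subunit rRNA (53 tested, 18 lower, 2 higher, median -0.43) both held lower calls. Of 5 orphan snoRNAs, with no known target, 3 were lower and none higher. Of 17 snoRNAs with no class in their name, 5 were lower and 2 higher. The 5 scaRNAs, the 2 methylation guides and the 10 single snRNA genes tested held no call, with medians of -0.73, -2.02 and -0.61.

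The largest fold changes among called members were in snoRNAs of differing level, Psi18S-531 being among the 10 snoRNAs with the highest mean CPM. Psi28S-2622, which lies outside any gene on its strand, had 1.19, 0.773 and 0.683 CPM in crop, against 3.79, 3.58, 5.44, 10.7 and 10.4 CPM in PV with LpWF, and was lower in crop (log2 fold change -2.92, SE 0.49, adjusted p = 0.00109). All crop libraries lay below the PV libraries, with PV libraries 4 and 5 highest. Psi18S-531 had 15.1, 5.78 and 5.86 CPM in crop, against 38.4, 20.1, 47.5, 114 and 109.9 CPM in PV with LpWF, at -2.88 (SE 0.75, adjusted p = 0.0166). It is on chromosome X, 763083 to 763234, minus strand, within lncRNA:CR42491, and the groups did not overlap. Without the PV libraries above 25% rRNA, Psi28S-2622 was at -2.25 (adjusted p = 0.000472) and Psi18S-531 at -1.97 (adjusted p = 0.0422), and Psi18S-531 lost its call without crop library 2 or 3 (adjusted p = 0.0672 and 0.0659).

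Psi28S-2876 in RpS5a had 0.742, 0.221 and 0.626 CPM in crop, against 1.11, 1.19, 2.11, 9.002 and 5.09 CPM in PV with LpWF, at -2.75 (SE 0.87, adjusted p = 0.0291). Or-aca5, an H/ACA snoRNA with no known target, had 7.50, 3.54 and 5.49 CPM in crop, against 15.4, 9.59, 17.9, 67.1 and 53.3 CPM in PV with LpWF, at -2.55 (SE 0.79, adjusted p = 0.0322). Psi28S-3378 in domino (dom), a chromatin remodeller gene, had 1.48, 1.07 and 1.08 CPM in crop, against 3.33, 2.35, 3.97, 12.2 and 9.51 CPM in PV with LpWF, at -2.34 (SE 0.61, adjusted p = 0.0129). In each the PV libraries with over 25% rRNA were well above the other PV libraries with LpWF, and in each the lowest PV library was above the highest crop library. Without the PV libraries above 25% rRNA the fold changes were -1.44 (adjusted p = 0.0547) for Psi28S-2876, -1.35 (adjusted p = 0.0138) for Or-aca5 and -1.39 (adjusted p = 0.00637) for Psi28S-3378. Psi28S-2876 and Or-aca5 also lost their calls without any 1 of the 3 crop libraries and without PV library 5 with LpWF (adjusted p of 0.0507 to 0.110), and Psi28S-3378 without crop library 2 or 3 (adjusted p = 0.0515 and 0.0529).

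Among the abundant guides, Psi18S-1377a in RpS7 had 57.3, 31.0 and 38.1 CPM in crop, against 68.2, 67.1, 64.9, 80.6 and 82.6 CPM in PV with LpWF, at -0.77 (SE 0.19, adjusted p = 0.00786). Psi18S-1820, in an intron of Nop60B, the gene of the pseudouridine synthase of H/ACA particles, had 26.7, 25.04 and 22.7 CPM in crop, against 41.2, 33.5, 53.0, 143 and 133 CPM in PV with LpWF, at -1.69 (SE 0.59, adjusted p = 0.0469). Psi18S-176 had 24.97, 6.224 and 14.6 CPM in crop, against 41.9, 28.7, 46.6, 56.2 and 61.1 CPM in PV with LpWF, at -1.61 (SE 0.46, adjusted p = 0.0226). Crop was below every PV library with LpWF for all of these. Without TMM none of them was called, at -0.03 (adjusted p = 0.885) for Psi18S-1377a, -0.84 (adjusted p = 0.0854) for Psi18S-1820 and -0.83 (adjusted p = 0.0745) for Psi18S-176. Without the PV libraries above 25% rRNA, Psi18S-1820 was at -0.76 (adjusted p = 0.00514) and Psi18S-176 at -1.34 (adjusted p = 0.112). The call of Psi18S-1820 was lost without any 1 crop library and without PV library 3, 4 or 5 with LpWF (adjusted p of 0.0532 to 0.130), and that of Psi18S-176 without crop library 3 (adjusted p = 0.0731).

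The 4 members higher in crop differed by less. The gene lola, which encodes zinc-finger transcription factors, hosts 4 snoRNAs, of which 3 were tested and 2 were higher. The first, lola-a, had 9.07, 6.45 and 8.08 CPM in crop, against 5.52, 4.77, 5.33, 4.77 and 4.98 CPM in PV with LpWF (log2 fold change 0.65, SE 0.14, adjusted p = 0.00356). The second, lola-b, had 7.95, 6.26 and 7.37 CPM in crop, against 4.04, 3.96, 5.49, 6.18 and 4.98 CPM in PV with LpWF (0.56, SE 0.18, adjusted p = 0.0265). For both the lowest crop library lay above the highest PV library with LpWF. All crop libraries also lay above all axenic PV libraries for lola-b, but not for lola-a. The remaining one tested, lola-c, had 5.46, 3.35 and 4.47 CPM in crop, against 4.29 to 8.04 CPM in PV with LpWF, and was not called (-0.39, adjusted p = 0.232). The mRNA of lola, at 278, 266 and 274 CPM in crop, against 207 to 277 CPM in PV with LpWF, was not called (0.19, adjusted p = 0.182), but was on library totals (0.94, adjusted p = 6.59e-05), as were lola-a and lola-b. The call of lola-b was lost without crop library 1 or 3 and without PV library 1 or 2 with LpWF (adjusted p of 0.0534 to 0.0992).

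Psi28S-3385a had 4.43, 3.06 and 3.84 CPM in crop, against 2.13 to 3.05 CPM in PV with LpWF, at 0.58 (SE 0.19, adjusted p = 0.0313). Its host kra, a translation regulator gene, was also higher in crop, at 0.51 (SE 0.09, adjusted p = 0.00140). Psi28S-3436b, the member with the least spread over all 13 libraries, had 21.6, 16.9 and 15.97 CPM in crop, against 13.9 to 15.9 CPM in PV with LpWF, at 0.29 (SE 0.11, adjusted p = 0.0476). The lowest crop library and the highest PV library with LpWF were close in both, and leaving out crop library 1 ended both calls (adjusted p = 0.133 and 0.240). Each was called in only a minority of the alternatives, library totals among them.

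By position, 235 members lay in an intron of a host on their strand, 18 overlapped a host exon and 29 lay in no such gene. The hosts with the most members were Arpc2, an actin-nucleating complex subunit, with 17, Uhg1 with 16, dom with 15, RpS5a with 14 and Uhg5 with 11, the Uhg genes being noncoding snoRNA hosts. For 105 tested members with a tested host, in 42 hosts, the median log2 fold change of crop over PV was -0.65 for the members and -0.13 for the hosts. Member and host had the same sign in 59 of 105, and across these genes, which share libraries and hosts, Pearson's r was 0.12. The median was -0.55 for 38 members in 13 ribosomal protein genes and -0.72 for 67 members in 29 other hosts.

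Members of one host could go opposite ways. In kra, 8 members were tested, running from -1.33 to 1.05, with Psi28S-3385a higher in crop and Psi28S-2442b lower with TMM (3.79, 1.66 and 2.13 CPM in crop, against 3.99 to 9.35 CPM in PV with LpWF, adjusted p = 0.0170). In RpS5a, 12 members ran from -2.75 to 0.75. Elsewhere members of a host shared a call, as did the guides Psi28S-1175a, b and c in RpS16 (-1.29, -0.85 and -0.60) and Psi28S-1837a, b and c in CG10576 (-1.15, -1.09 and -0.91), all lower in crop with TMM and none called without it, Psi28S-1175c turning to 0.15. The estimated reads of these guides were whole numbers in each library, except for Psi28S-1837b and c in PV library 2 with LpWF (699.9 and 114.1). A split of reads between them is thus visible in that library alone. The hosts were lower by less, at -0.37 for RpS16 and -0.44 for CG10576, and turned to 0.35 and 0.28 without TMM. In Uhg4, Or-aca5 and Or-CD2 (-2.23, adjusted p = 0.0330) were lower in crop while the host RNA was higher (0.61, adjusted p = 0.0460). On library totals Or-aca5 was still lower (-1.66, adjusted p = 0.0419), Or-CD2 was not called (-1.39, adjusted p = 0.0505) and the host was higher (1.36, adjusted p = 0.000512).

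**Figure D4:**
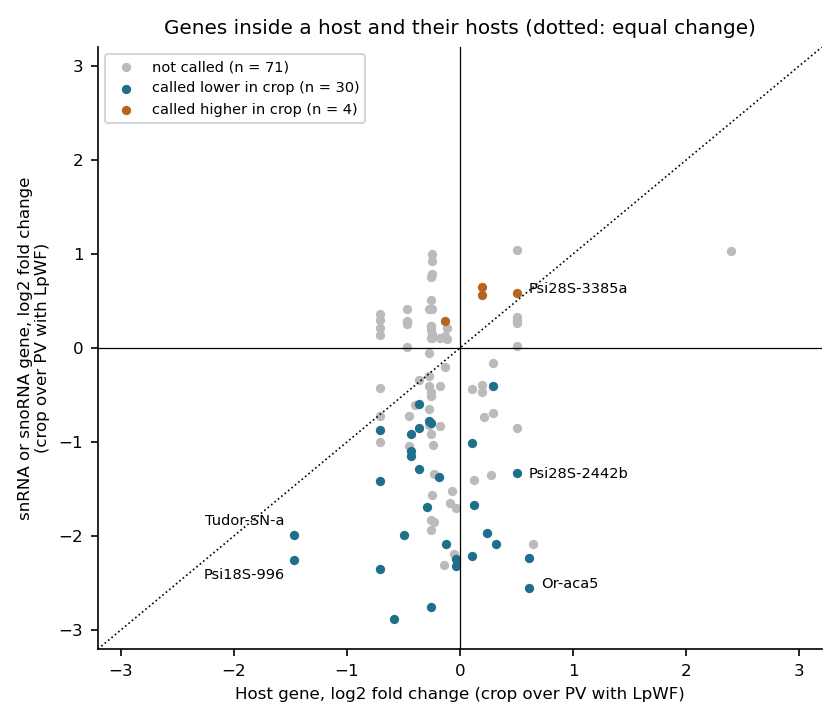
Log2 fold change of crop over PV with LpWF of each of 105 members (vertical axis) against that of its host gene (horizontal axis), with a point per member, coloured where it was called, and a dotted line of equal change. Tudor-SN-a and Psi18S-996 lie farthest to the left, with their host at -1.47, and most other points spread vertically over hosts nearer to 0 (Pearson's r = 0.12).

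Many members were high or low together in a library. Among 87 members with at least 10 reads in each of the 13 libraries, the highest library was a median of 4.88 times the lowest, from 1.55 for Psi28S-3436b and 1.60 for 7SKa to 30.7 for Or-CD2 and 37.4 for Psi18S-531. Relative to each member's geometric mean, the median log2 deviation was -0.10, -0.93 and -0.64 in crop libraries 1 to 3, against 0.03, -0.35, 0.01, 0.51 and 0.47 in PV with LpWF, and -0.06, 0.46, 0.15, 0.86 and -0.03 in axenic PV. In crop library 2 only 9 of 87 members were above their mean, and in axenic PV library 4, which had the most rRNA, 77 were. The share of reads on 7SL, the RNA of the signal recognition particle, also differed, at 4.18, 0.740 and 1.03% in crop and 0.982 to 6.996% over the PV libraries. In the 4 PV libraries above 25% rRNA, the 78 members shorter than 200 bases had a median log2 ratio of 0.43 over the other 6, and the 9 longer ones of -0.11. With a term for libraries above 25% rRNA in the fit, 26 members were lower and 4 higher in crop, the share of all genes in that fit not being given here. The part of 7SL was not tested.

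**Figure D5:**
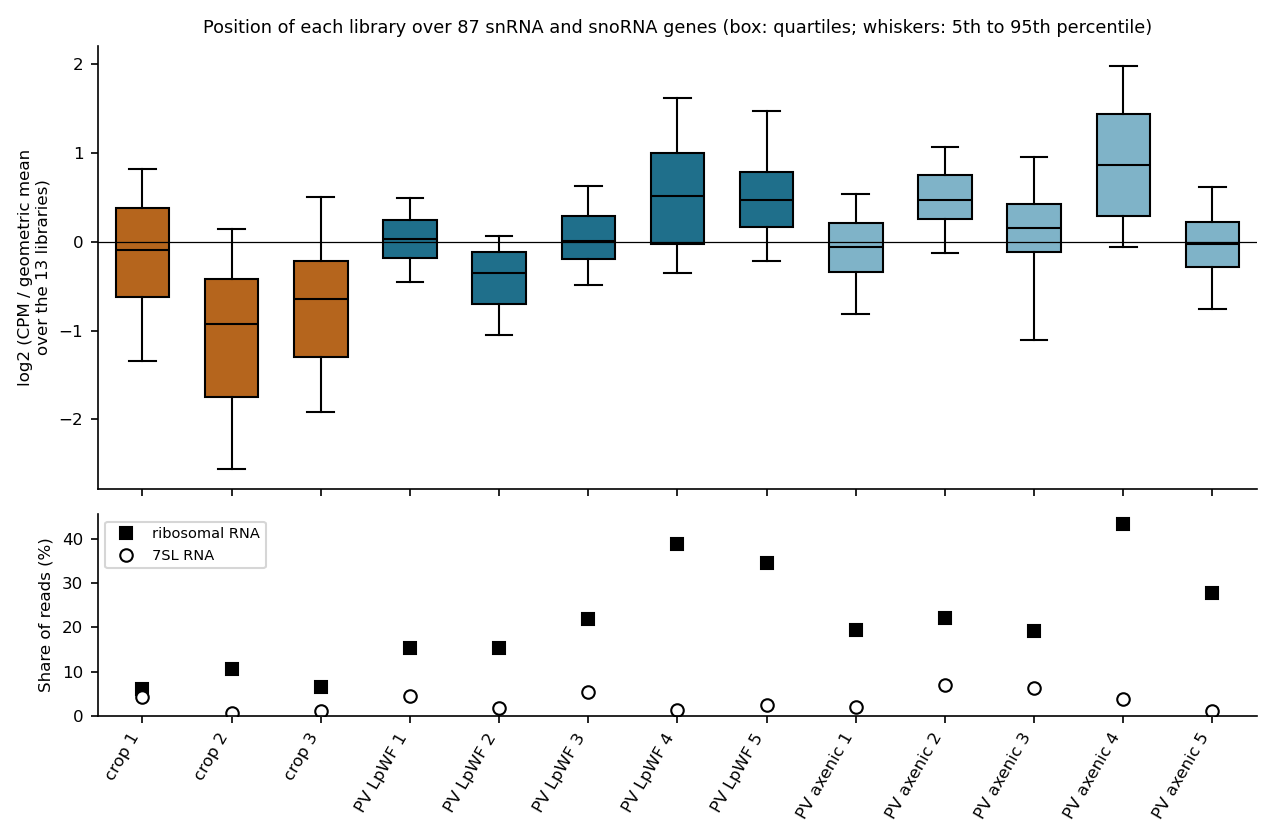
Log2 deviation of CPM from each member's geometric mean over the 13 libraries for 87 members (box: quartiles, line: median, whiskers: the 5th to the 95th percentile), by library, above the percent of reads on rRNA and on 7SL. The medians run from -0.93 in crop library 2 to 0.86 in axenic PV library 4.

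No member was called between PV of flies given LpWF and of axenic flies. Of 120 members tested between PV with LpWF and axenic PV, 0 were higher and 0 lower by edgeR, where 0% of 9360 genes were higher and 0.0107% lower. DESeq2 also called 0 members, the share of all genes in that fit not being given here. The paper, using DESeq2, reports immune genes raised by LpWF in PV, among them DptB, AttA and Def, while edgeR called no gene higher here. An unadjusted p under 0.05 was reached by 3 members in edgeR and 5 in DESeq2, and the lowest adjusted p was 0.495, for Psi18S-1377c (-0.41, SE 0.17) and Psi28S-2149 (-0.43, SE 0.19). Psi18S-1377c had 3.09 to 3.98 CPM in PV with LpWF, against 3.37 to 6.19 CPM in axenic PV, and no member's groups were free of overlap. The median was -0.13 over the 120, against 0.00 over all genes, and single members ran from -0.99 to 1.16. 7SK had 2361 to 2873 CPM in PV with LpWF, against 2469 to 3134 CPM in axenic PV, at -0.14 (SE 0.09, adjusted p = 0.603). With an SE of 0.62 for U1 (-0.22), 0.49 for U2 (-0.58) and 0.67 for U4 (-0.13), the intervals of these differences are wide, and the lack of calls does not show that they were equal.

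Genes of the proteins that work with these RNAs were called in both directions between crop and PV with LpWF on the TMM scale, where 26.1% of all genes were higher and 25.5% lower. Of 14 genes of Sm core, U1 and U2 particle proteins, 3 were higher and 1 lower in crop, with a median of 0.15. The lower one was SmD3, a subunit of the Sm ring, at -1.79 (SE 0.21, adjusted p = 9.19e-05), and -1.09 without TMM (adjusted p = 0.00862). Of 13 genes of the U4/U6.U5 particle and LSm proteins, 1 was higher and 1 lower, Prp8, the core of the spliceosome, at -0.26. Of 18 tested genes of snRNA synthesis and assembly, 4 were higher, among them Gem2 (0.73) and Gem3 (0.43) of the SMN assembly complex, and 3 lower, among them the Integrator subunit genes IntS12 (-0.59) and IntS8 (-0.41). None of the 4 box C/D and 5 box H/ACA protein genes was called, with medians of -0.11 and -0.29. Of 8 genes in a list of Uhg hosts, in which the entry Uhg6 was matched to Nop60B, 2 were higher, Uhg2 (0.57, adjusted p = 0.0401) and Uhg4. Nop60B is thus counted in the box H/ACA list too. On library totals most genes of these lists were higher in crop, as were 57.8% of all genes, namely 12 of 14, 11 of 13, 14 of 18, 3 of 4, 2 of 5 and 5 of 8 in the order given, Prp8 (0.47), IntS8 (0.29) and IntS12 (0.096) turned positive, and SmD3 was the only lower call.

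Of 3 short noncoding RNAs outside the snRNA and snoRNA biotypes, 2 were lower in crop with TMM. RNaseMRP:RNA, which cuts precursor rRNA, had 1467, 782 and 891 CPM in crop, against 1766, 1866, 3241, 2600.3 and 2886 CPM in PV with LpWF, at -1.23 (SE 0.28, adjusted p = 0.00602). RNaseP:RNA, which trims tRNA precursors, was lower at -1.04 (SE 0.31, adjusted p = 0.0233), and 7SLRNA:CR32864 was not called (-1.34, adjusted p = 0.155). On library totals none of the 3 was called, at -0.48, -0.30 and -0.64. In PV with LpWF against axenic PV no gene of these lists was called.

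In the SG libraries the order of the members differed from that in the total RNA libraries, though most of the leading ones were abundant there too. Psi18S-531 led with 44, 56 and 33 reads. A snoRNA with no class in its name, not described above, had 21, 33 and 22 reads. It was not abundant in the rRNA-depleted libraries, at 50 to 189 reads in each. U2:34ABb had 17, 41 and 14 reads in SG and Psi28S-2566 had 16, 26 and 24 reads. Psi18S-531 was at 1.46, 1.52 and 1.03 CPM (here with no TMM). Tudor-SN-a had 0.125 to 0.366 and 7SK 0.166 to 0.592 CPM. These RNAs carry no poly(A) tail, so the values are what passed the selection and no level in the gland.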

How the data were processed

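Per-transcript tables of Salmon were deposited for 16 libraries. The deposited estimated counts (NumReads), TPM and effective lengths were made by the authors with Ensembl release 98 on BDGP6 and were not normalised further. The deposited effective length, another column, was read as given, and no version of Salmon is given in the sources used here.

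Estimated counts and TPM were summed per gene with Ensembl release 115 (BDGP6.54). Of 33704 transcripts, 271 matched no gene, with 0.128 to 0.257% of reads. Counts were rounded and tested with edgeR 4.0.16 (TMM, filterByExpr, robust quasi-likelihood, R 4.3.3) on the libraries of each comparison, with Benjamini-Hochberg adjustment over all genes and a limit of 0.05, and with DESeq2 1.42.0 as an alternative. CPM uses TMM over 13 libraries, and SG values are scaled by library totals alone. Fold changes carry edgeR's prior count, and an SE is the fold change over the root of F. On simulated counts, 179 of 198 changed genes were recovered for crop against PV (6 others called, 9718 genes) and 184 of 196 for LpWF against axenic (12 others called, 9513 genes). Those counts had a dispersion of 0.05 for every gene and no shift in composition between groups. Recovery for members that vary more between libraries was therefore not measured. Families are sums over the copies listed.

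Named genes are all snRNA families, the 10 snoRNAs with the highest mean CPM, up to 5 called members without overlap with the largest fold change in each direction, their hosts, and up to 4 called genes per list. The members and lists were chosen with earlier results of these data known. Sequences and tables of the authors' own comparisons were not used here. Alternatives were DESeq2 and its size factors, other filters, TMM on coding genes or without rRNA and 7SL, a replicate block, an rRNA term, leaving out libraries and, chosen after seeing the data, library totals without TMM and PV libraries above 25% rRNA alone. Versions were Python 3.11.15, pandas 2.3.3 and matplotlib 3.10.9.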

Additional observations from a re-analysis of the deposited data

Results flagged for a closer look

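In groups of 5 libraries, 6 of 56 groups held a library far from the others by Dixon's criterion at the 95% level. The groups share the same libraries, and many members were high or low together, so the 6 are not independent and are set against no chance rate. In axenic PV the far library was library 4 each time, the library with the most rRNA. Psi18S-531 was at 216.1 CPM there, against 33.4 to 75.04 CPM in the other axenic libraries, and Or-aca5 was at 88.95 CPM, against 18.2 to 29.0 CPM. Psi28S-3378 was at 13.85 CPM, against 4.55 to 7.21 CPM, and Psi28S-2876 was at 7.624 CPM, against 0.809 to 2.56 CPM. The U4 family was at 171.9 CPM, against 30.6 to 53.9 CPM. In PV with LpWF, library 2 had a summed snoRNA share of 0.1485%, below the 0.197 to 0.205% of the other libraries.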

How the results depend on the processing

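Between crop and PV with LpWF, higher members numbered 4 as reported, 2 with a filter of 1 read in any library and 25 on library totals without TMM, and 1 to 7 when a library was left out. Lower members numbered 34 as reported, 21 without the PV libraries above 25% rRNA and 14 on library totals, and 15 to 41 when a library was left out. With a replicate block they were 4 and 28. Shares of all genes called are given above for the fit as reported and for library totals alone. Same-number libraries correlated at -0.106 to 0.026 for crop against PV with LpWF and at 0.027 to 0.440 for PV with LpWF against axenic PV, 3 of these 5 over 0.1 and 1 of 5 libraries correlating best with its own number, so the numbers were not taken as a pairing. No snRNA family was called as reported or with the block, 2 with DESeq2, 1 on library totals, and 0 to 5 when a library was left out. The snRNA log2 ratio of crop over PV of 0.38, most of its reads being on 7SK, became 0.066 outside rRNA, 0.040 outside rRNA and 7SL, and 0.041 against protein-coding reads. It was 0.20 to 0.49 when a library was left out. The snoRNA ratio of -0.44 became 0.07 in TPM and -0.86 to -0.18 when a library was left out. On library totals the sign turned for 7SK (0.47), U11 (0.26), U12 (0.13), U4atac (0.14) and MeU5-C46 (0.28).

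Between PV with LpWF and axenic PV, no setting called a member or a family, the block included, and the summed ratios stayed within -0.16 to -0.01 for snRNA and -0.18 to 0.02 for snoRNA when a library was left out, with 0.07 for snoRNA in TPM. Signs turned for uncalled members: Tudor-SN-a at 0.36 in the PV libraries above 25% rRNA alone and 0.087 on library totals, Psi18S-1377a at 0.15 and 0.048, and, in the libraries above 25% rRNA alone, Psi28S-291 at 0.044 and MeU5-C46 at 0.038. Psi18S-1820 was at -0.053 (block), -0.070 (rRNA term) and -0.42 (without the libraries above 25%), and Psi18S-1854c at -0.14, -0.13 and -0.50. When a library was left out, ranges crossed 0 for Tudor-SN-a (-0.13 to 0.095), Psi18S-1820 (-0.20 to 0.36), Psi18S-531 (-0.67 to 0.30), Psi18S-1854c (-0.44 to 0.33), U4 (-0.45 to 0.55), U11 (-0.34 to 0.023) and U1 (-0.47 to 0.36). Most members under 130 bases had too few reads to test. The cause of these changes was not tested.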
